A study of Epimedium pubescens with 12 samples.

Results

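The effect of phosphorus supply common to both sampling times was read from all 12 leaf libraries of Epimedium pubescens, a medicinal herb of the barberry family. The 6 libraries of leaves grown without phosphate (-P, 0 mmol/L Pi) were set against the 6 of leaves grown with it (+P, 1 mmol/L Pi), with time as a covariate, and every gene that passed a filter on low counts was tested, 24307 of 53813 in the table. Each of the 4 groups (30d -P and 30d +P sampled at 30 d, 90d -P and 90d +P at 90 d) held 3 replicates, A to C, of leaves from one-year-old seedlings in sand culture under 1 light and temperature regime. Each replication held 12 seedlings by the study's description. The labels name no genotype, line or transgene for any group, and by the study's methods the seedlings had been collected from cultivation bases. The -P and +P solutions also differed in potassium, sodium, sulfate and nitrate salts, so phosphate and these ions cannot be told apart. The question was which genes differed between -P and +P in the same direction at 30 d and at 90 d.

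Leaves short of phosphate are known to turn on a set of responses in Arabidopsis and rice. Transcription factors of the PHR1 type, held back by SPX sensor proteins when phosphate is ample, drive phosphate transporters and secreted acid phosphatases. The same program replaces membrane phospholipids by sulfolipids and galactolipids and routes glycolysis around steps that need phosphate or adenylates. Starch often builds up in such leaves, because export of triose phosphate from the chloroplast needs phosphate in return.

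Sequencing gave 14756971 to 18153463 counts a library. Within groups, libraries were correlated at a Spearman's rho of 0.870 to 0.966 across genes, and 2 libraries stood lowest against their own group, 30d +P A with 0.888 to 0.891 and 90d +P B with 0.870 to 0.894. Of the sum of squares of the log2 CPM (a gene's counts relative to its library's total after TMM scaling, as edgeR's cpm gives them) over the genes tested, phosphorus took 12.01%, time 29.6%, their interaction 4.97% and the spread between replicates 53.5%, with 1, 1, 1 and 8 degrees of freedom. In the same fit that tested phosphorus, 3145 genes (12.9%) were called between 90 d and 30 d. Defining markers of leaf mesophyll, such as the small subunit of Rubisco and chlorophyll-binding proteins, summed to 41628 to 88999 CPM in every library, and the 3 genes of the Casparian strip of roots to at most 0.120 CPM. No class of cell type markers had a called gene, but 1 of the 24307 genes tested was called at all, so this says little about cell types. An unadjusted p under 0.05 was met by 4 of 54 mesophyll, 6 of 41 epidermis and cuticle and 0 of 12 guard cell markers tested. For phloem it was 1 of 13, for xylem and fibre 4 of 55 and for dividing cells 1 of 42, beside 2515 of all 24307 genes. The summed levels of every class with genes overlapped between -P and +P. The 87 xylem and fibre genes summed to 94.7 to 4592 CPM in -P and 162 to 2925 CPM in +P. Fewer cells of a type and less RNA per cell cannot be told apart in whole leaves.

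One gene, Ebr06G019870, fell under -P by 5.51 on the log2 scale, and none rose. A call needed, in edgeR's quasi-likelihood test, an adjusted p (Benjamini-Hochberg) no higher than 0.05 and a log2 fold change of 1 or more in size, and 0 genes (0%) were called higher and 1 gene (0.00411%) lower in -P. At an unadjusted p under 0.05, 1062 genes (4.37%) were higher and 1453 (5.98%) lower. DESeq2 with the same thresholds called 162 genes (0.584% of the 27734 it tested) higher and 366 (1.32%) lower, and limma-voom with sample quality weights called 19 higher and 50 lower. The count of calls thus differed by test, and the lower side was the larger one in all 3. It also differed by library, since edgeR called 1 higher and 7 lower genes without 30d +P A, 6 lower without 90d -P B, and 1 higher and 14 lower without the pair 30d +P A and 90d +P B. The interaction of phosphorus and time passed the adjusted threshold for 0 genes and an unadjusted p under 0.05 for 723.

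The gene that fell was Ebr06G019870 (chromosome 6, 150077920 to 150084866, in the coordinates of the authors' reference genome), whose best protein match is RNA-binding protein 24-A of the frog Xenopus laevis and which holds an RNA recognition motif. It had 0.215, 0.261 and 0.255 CPM in the 30d -P libraries A, B and C and 17.2, 3.6 and 5.08 CPM in the 30d +P libraries, then 0.0608, 0.0609 and 0 CPM in 90d -P and 3.09, 4.94 and 2.54 CPM in 90d +P. All 6 -P libraries lay below all 6 +P libraries. The log2 fold change was -5.51 (SE 0.58, adjusted p = 0.0219), with -5.10 at 30 d and -6.19 at 90 d, and it was lower in 6 of 6 libraries. Its level was low, so a few reads decided the -P values. The adjusted p was above 0.05 when 30d -P A, B or C, 90d -P A or 90d +P A was left out, at 0.114, 0.122, 0.0642, 0.0902 and 0.0792, whereas the log2 fold change ranged from -5.76 to -5.07 over the 12 fits that each left out 1 library. Neither time alone gave a call, at an adjusted p of 0.205 for the 30 d libraries and 0.569 for the 90 d libraries.

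Behind it, the smallest adjusted p was 0.137, shared by 4 genes, so these lie just outside the threshold. Ebr01G048490 (chromosome 1, 418261255 to 418295559), which has no protein match, had 1.005, 0.784 and 1.34 CPM (30d -P), 3.96, 5.77 and 5.28 CPM (30d +P), 1.28, 1.83 and 0.678 CPM (90d -P) and 5.03, 4.03 and 5.29 CPM (90d +P). The 6 -P values lay between 0.678 and 1.83 CPM and the 6 +P values between 3.96 and 5.77 CPM, so the groups did not overlap at either time. Its log2 fold change was -2.08 (SE 0.30), -2.25 at 30 d and -1.92 at 90 d. Genes that the authors assembled outside the reference annotation carry a number in the files and are written here as assembled gene with that number. Assembled gene 2466 (chromosome 2, 613117700 to 613132296) matches a cytosolic pyruvate kinase of potato, the enzyme of the last step of glycolysis, though its only domain call is a reverse transcriptase-like one. It had 0, 0.131 and 0 CPM (30d -P), 0.461, 11.2 and 15.5 CPM (30d +P), 0.243, 0.122 and 0.555 CPM (90d -P) and 11.8, 41.4 and 12.2 CPM (90d +P), a log2 fold change of -6.56 (SE 0.94, adjusted p = 0.137). Replicate A of 30d +P was close to the -P libraries, and the other 5 +P libraries lay far above them. On the higher side, Ebr0G011340 matches a nucleosidase of the bacterium Treponema pallidum that cleaves methylthioadenosine and S-adenosylhomocysteine. It had 2.51, 2.68 and 1.72 CPM (30d -P), 0, 0.075 and 0.0668 CPM (30d +P), 0.547, 0.243 and 2.65 CPM (90d -P) and 0, 0 and 0 CPM (90d +P), a log2 fold change of 5.98 (SE 0.89, adjusted p = 0.137). The 6 +P libraries were all at or near 0, and 90d -P A and B lay well under the other -P libraries.

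**Figure D1:**
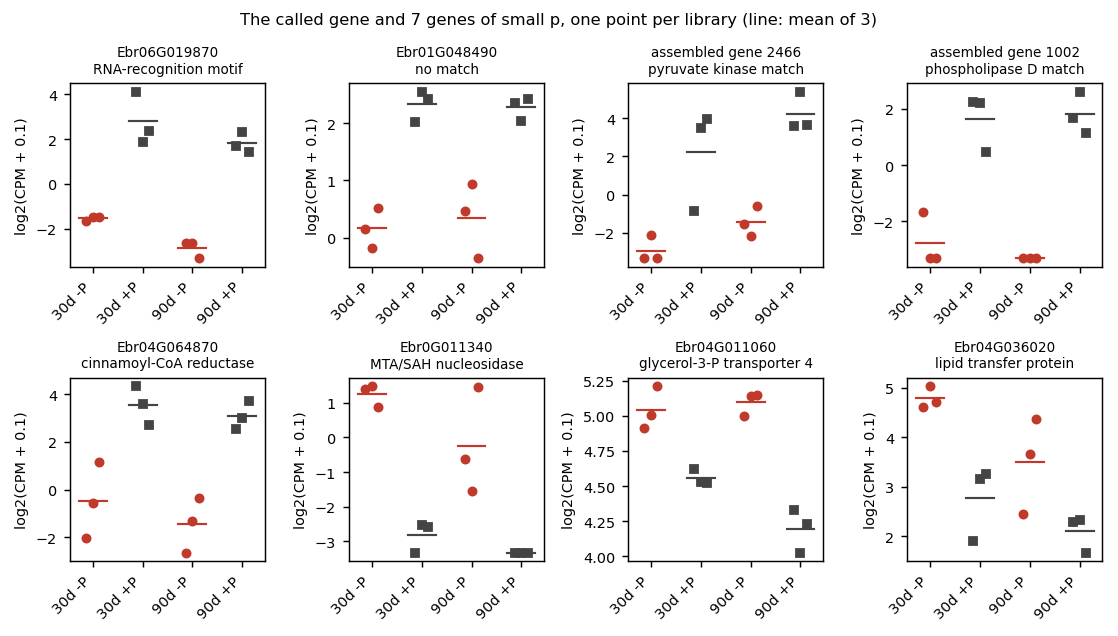
Level of the called gene Ebr06G019870 and of 7 further genes of small p in each of the 12 libraries, as log2(CPM + 0.1) on the vertical axis, by group on the horizontal axis. Red circles are -P and grey squares +P libraries, and lines are means of 3. In each panel the -P and +P points do not overlap within a time, and the glycerol-3-phosphate transporter gene Ebr04G011060 has the smallest difference, 0.70 on the log2 scale.

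Of the 12 genes with the smallest p on the lower side, 11 did not pass, at adjusted p of 0.137 to 0.148, and 11 of the 12 had no overlap at both times. The first pair belongs to lignin synthesis. Cinnamoyl-CoA reductase 1 (Ebr04G064870, matched to petunia), the first committed step to lignin monomers, had 0.143, 0.588 and 2.1 CPM (30d -P), 20.04, 12 and 6.41 CPM (30d +P), 0.0608, 0.304 and 0.678 CPM (90d -P) and 5.76, 7.84 and 13.02 CPM (90d +P). Every -P library was at or under 2.10 CPM and every +P library at or over 5.76 CPM, a log2 fold change of -4.17 (SE 0.67, adjusted p = 0.148). A more abundant gene with this match, Ebr01G069720, was higher in -P without overlap at both times. It had 64.3 to 108 CPM in -P and 47.7 to 82.4 CPM in +P, a log2 fold change of 0.32. Laccase-5 (Ebr04G031150, matched to Arabidopsis), a copper oxidase that couples lignin monomers, was at 0 in 5 of 6 -P libraries, at 15.2 to 38.7 CPM in 5 of 6 +P libraries and at 0 in 90d +P C. The library 90d +P C thus overlaps the 90d -P libraries, and without it this gene passed the threshold at an adjusted p of 0.00986. Serine carboxypeptidase-like 18 (Ebr04G067470), of a family of peptidases and acyltransferases, had 2.35 to 8.87 CPM (median 4.9) in -P and 5.62 to 25.1 CPM (median 11.9) in +P, a log2 fold change of -1.22 (SE 0.21, adjusted p = 0.148). Its levels were higher at 90 d than at 30 d in both arms, and the -P libraries lay below the +P libraries within each time.

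A receptor-like protein kinase (Ebr04G039560, matched to Arabidopsis) had 1.47 to 8.76 CPM (median 4.37) in -P and 6.15 to 16.97 CPM (median 12.6) in +P, a log2 fold change of -1.55 (SE 0.27, adjusted p = 0.148). Its difference was -2.13 at 30 d and -0.99 at 90 d. Ebr02G062040, a protein of unknown function with an Arabidopsis match, had 0 to 1.05 CPM in -P and 1.21 to 19.0 CPM in +P. The remaining 4 were assembled genes without a protein match (7412, 4704 and 1285) and the phospholipase D match described with the lipid genes. Assembled genes 7412 and 1285 had log2 fold changes of -4.50 and -4.25, with at most 0.215 and 0.196 CPM in any -P library. Assembled gene 4704 had no read in any of the 6 -P libraries.

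The 12 genes with the smallest p on the higher side had adjusted p of 0.137 to 0.202, and 10 of them had no overlap at both times. Ebr04G036020, a GPI-anchored lipid transfer protein by its Arabidopsis match, had 24.4, 32.7 and 26.2 CPM (30d -P), 3.62, 8.77 and 9.41 CPM (30d +P), 5.35, 12.6 and 20.6 CPM (90d -P) and 4.79, 4.94 and 3.08 CPM (90d +P). The 90d -P values overlapped those of 30d +P, but within each time the arms did not overlap, a log2 fold change of 1.76 (SE 0.33, adjusted p = 0.167). Ethylene-responsive transcription factor 1A (Ebr04G011510, matched to Arabidopsis), an activator of defence and ethylene genes, had 77.1, 80.5 and 40.7 CPM (30d -P), 40.01, 21.97 and 24.7 CPM (30d +P), 24.01, 47.3 and 67.2 CPM (90d -P) and 17.4, 12.03 and 19.2 CPM (90d +P). Each -P library exceeded each +P library of its time, although at 30 d the closest ones were 40.7 and 40.0 CPM, a log2 fold change of 1.35 (SE 0.28, adjusted p = 0.202).

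A pair of membrane proteins and a receptor of the list differed by about the fold change minimum. The cytochrome b561 and DOMON domain gene Ebr03G007060, an electron carrier of membranes in Arabidopsis, had 220.4, 369 and 203 CPM (30d -P), 105, 86.8 and 106 CPM (30d +P), 77.4, 81.8 and 71.4 CPM (90d -P) and 49.4, 43.8 and 62.5 CPM (90d +P). Its difference was 1.41 at 30 d and 0.57 at 90 d. The vacuolar amino acid transporter AVT1A match (Ebr05G007130) had 14.5 to 43.3 CPM (median 24.1) in -P and 4.61 to 24.98 CPM (median 13.4) in +P, a log2 fold change of 0.96 (SE 0.20, adjusted p = 0.202). Receptor-like protein EIX2 (Ebr03G020740), which in tomato binds a fungal xylanase, had 13.2 to 27.2 CPM (median 17.2) in -P and 5.76 to 12.9 CPM (median 8.29) in +P, a log2 fold change of 1.09 (SE 0.22, adjusted p = 0.202). For EIX2 all 6 -P libraries lay above all 6 +P libraries, and for AVT1A this held within each time only.

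The others of the 12 were nearer to the counting limit or uneven. The wall-loosening enzyme XTH22 (Ebr04G059570, matched to Arabidopsis) had 8.61, 21.4 and 2.17 CPM in 30d -P and at most 0.4499 CPM in every other library, so its log2 fold change of 5.56 came from 1 time. A receptor-like kinase match (assembled gene 3881) was at 0 in 30d -P A and at 1.40 to 13.3 CPM in the other 5 -P libraries, with at most 0.2999 CPM in +P. Ebr02G005880 and assembled genes 5728 and 6205 have no protein match, and their log2 fold changes were 4.96, 6.04 and 2.56. Of these 3, assembled gene 6205 had the most reads in +P, 0.648 to 3.33 CPM against 4.02 to 11.8 CPM in -P.

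Repetition between the times was partial. The log2 fold changes at 30 d and 90 d, which share no library, had the same sign in 14658 genes (60.3%), and Spearman's rho between them was 0.303 across the 24307 genes, which are not independent replicates. No overlap meant that all 3 -P libraries lay above, or all below, the 3 +P libraries of a time. It was met at 30 d by 1657 genes (6.82%) higher and 2028 (8.34%) lower in -P. At 90 d it was met by 1077 (4.43%) higher and 1091 (4.49%) lower. Both times showed it in the same direction for 150 genes higher (0.617% of genes tested) and 230 lower (0.946%), and in opposite directions for 43. Of the genes higher without overlap at 30 d, 9.05% were so again at 90 d and 1.33% were opposite, and of those lower, 11.3% and 1.04%. The shares over all genes at 90 d were 4.43% higher and 4.49% lower. Taken from 90 d, 13.9% of the higher and 21.1% of the lower genes were so at 30 d, beside 6.82% and 8.34% of all genes. Of these same-way genes, 47 higher (31.3%) and 90 lower (39.1%) had all 6 -P libraries beyond all 6 +P libraries.

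**Figure D2:**
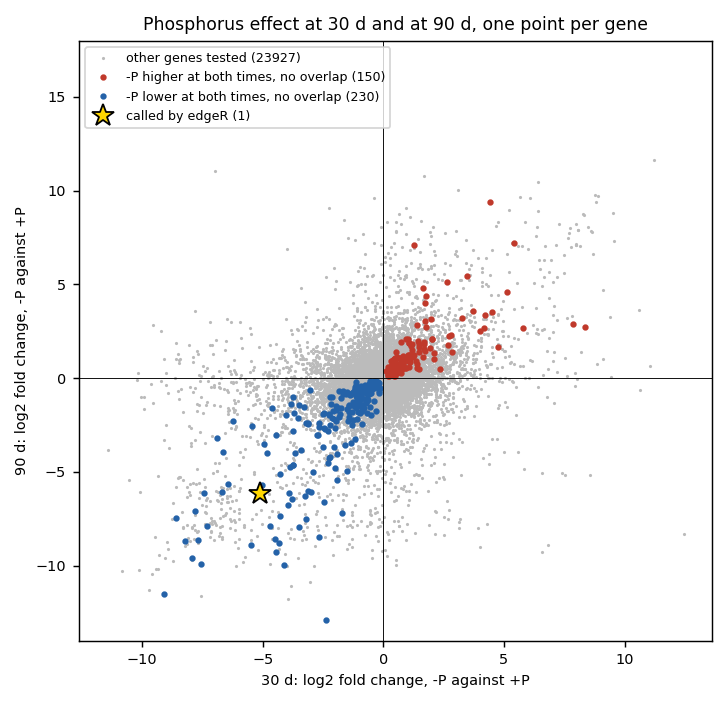
Log2 fold change of -P against +P at 30 d (horizontal axis) and at 90 d (vertical axis), 1 point for each of the 24307 genes tested. Red points are the 150 genes higher and blue points the 230 genes lower without overlap at both times, and the star is Ebr06G019870. Blue points reach further from 0 than red points do.

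The same-way genes on the 2 sides differed in size and kind. The median log2 fold change was 0.82 on the higher side and -1.30 on the lower, values that the choice by non-overlap shapes, and an absolute log2 fold change of 3 or more was met by 18 of 150 higher and 54 of 230 lower genes. Assembled genes made up 16.7% of the higher genes, 29.1% of the lower genes and 19.2% of all genes tested. Of the 4673 assembled genes tested, 237 (5.07%) were higher and 497 (10.6%) lower at an unadjusted p under 0.05. A protein match was annotated for 77.3% of the higher, 60% of the lower and 69.1% of all genes. The median level was 12.2 CPM for the higher and 5.47 CPM for the lower genes, beside 7.99 CPM over all genes. They lay on all 6 chromosomes, at 0.427% (chromosome 4) to 0.842% (chromosome 3) of the genes tested on the higher side and at 0.639% (chromosome 5) to 1.2% (chromosome 3) on the lower. The interaction of phosphorus and time had an unadjusted p under 0.05 in 22 of the 380, beside 723 of the 24307 genes tested. The 380 were chosen for moving the same way at both times, so this count does not show how far their effect was common to both.

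The same-way genes with the highest CPM were chosen after their values were seen, and counting error is small there. Cytosolic aconitase (Ebr03G026360, matched to squash), which interconverts citrate and isocitrate, had 632 to 700 CPM in the 6 -P libraries and 410 to 603 CPM in the 6 +P libraries. All 6 were above all 6, with a log2 fold change of only 0.40 (SE 0.12). The outer mitochondrial membrane porin of 36 kDa (Ebr02G037830, potato), the channel for metabolites, had 142, 136 and 142 CPM (30d -P), 104, 117 and 103 CPM (30d +P), 179, 187 and 188 CPM (90d -P) and 164, 109 and 158 CPM (90d +P). Long chain acyl-CoA synthetase 8 (Ebr06G058390, Arabidopsis), which activates fatty acids, had 102 to 182 CPM (median 137) in -P and 76.3 to 111 CPM (median 90.5) in +P, a log2 fold change of 0.64 (SE 0.15, adjusted p = 0.234). Callose synthase 9 (Ebr06G025650, Arabidopsis) had 108 to 164 CPM (median 125) in -P and 68.01 to 119 CPM (median 96.2) in +P, a log2 fold change of 0.42 (SE 0.15, adjusted p = 0.347).

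On the lower side, 2 genes of high CPM belong to photosynthesis, though their lists as a whole did not lean lower. The photosystem and light harvesting list had 56 positive and 47 negative log2 fold changes, with a median of 0.06. The mesophyll markers had 33 positive and 21 negative ones, with a median of 0.10. Rubisco activase 1 (Ebr01G048300, matched to the creosote bush), which frees Rubisco of bound sugar phosphates, had 138, 211 and 300.3 CPM in the 30d -P libraries A, B and C and 533, 412 and 476 CPM in the 30d +P libraries, then 225, 167 and 132 CPM in 90d -P and 262, 294 and 454 CPM in 90d +P. The -P libraries lay below the +P libraries at each time, a log2 fold change of -1.04 (SE 0.22, adjusted p = 0.202), a little over a 2-fold difference. Subunit V of the photosystem I reaction center (Ebr03G000080, Arabidopsis) had 446, 376 and 498 CPM (30d -P), 582, 1398 and 828 CPM (30d +P), 222, 320.3 and 259 CPM (90d -P) and 398, 398 and 338 CPM (90d +P). The +P library 30d +P B stood far above the other 2 of its group, and the difference was -1.09 at 30 d and -0.50 at 90 d. Glutathione S-transferase T1 (Ebr05G063990, Arabidopsis), a detoxifying enzyme, had 185 to 260 CPM in -P and 271 to 486 CPM in +P. All 6 -P libraries lay below all 6 +P libraries, a log2 fold change of -0.89 (SE 0.16, adjusted p = 0.148). The histone deacetylase HDT2 match (Ebr01G055910, maize) had 56.5, 55.5 and 58.8 CPM (30d -P), 82.7, 85.3 and 84.2 CPM (30d +P), 108, 108 and 95.5 CPM (90d -P) and 276, 458 and 173 CPM (90d +P). In each arm it was higher at 90 d, and the difference was -0.56 at 30 d and -1.54 at 90 d. Translation initiation factor 5A-4 (Ebr02G071230, potato) and subunit M of initiation factor 3 (Ebr03G050000, Dictyostelium) had log2 fold changes of -0.66 (SE 0.19) and -0.31 (SE 0.10).

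Starch genes lay mostly on the higher side in -P. Of 103 genes annotated to starch and sucrose, 64 were tested, 0 were called by edgeR, and 11 (17.2%) had an unadjusted p under 0.05 with a higher level in -P, beside 4.37% of all genes, and 0 with a lower one, beside 5.98%. With each library left out in turn the higher count was 6 (without 30d +P C) to 14, and without the pair 30d +P A and 90d +P B it was 9 with 1 lower. The median log2 fold change of the 64 was 0.15, beside -0.01 over all genes, and 45 of 64 were positive. Granule-bound starch synthase 1 (Ebr04G020730, matched to cassava), which makes amylose, had the smallest p of the list. It had 72.5, 211 and 143 CPM in the 30d -P libraries A, B and C and 72.2, 42.4 and 38.1 CPM in the 30d +P libraries, then 292, 700.0 and 557 CPM in 90d -P and 227, 224 and 140.1 CPM in 90d +P. Its level was higher at 90 d in both arms, and at 30 d the lowest -P and highest +P libraries, 72.5 and 72.2 CPM, almost touched, a log2 fold change of 1.44 (SE 0.30, adjusted p = 0.202).

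Glucose-1-phosphate adenylyltransferase makes ADP-glucose, the substrate of starch synthesis. Its large subunit (Ebr04G029750, sugar beet) had 51.2, 57.98 and 27.4 CPM (30d -P), 16.4, 25.04 and 28.3 CPM (30d +P), 308, 262 and 75.6 CPM (90d -P) and 67.8, 38.4 and 31.1 CPM (90d +P). The 30 d libraries overlapped and the 90 d libraries did not, a log2 fold change of 1.60 (SE 0.40, adjusted p = 0.24). The small subunit genes Ebr03G002240 and Ebr03G001820 (rapeseed) had log2 fold changes of 0.34 and 0.28. Both branching enzyme 1 genes, which the list's wording had missed, were among the same-way genes of highest CPM. Ebr01G064020 (pea) had 314, 276 and 290.3 CPM (30d -P), 262, 229 and 224 CPM (30d +P), 317, 396 and 404 CPM (90d -P) and 213, 166 and 219.9 CPM (90d +P). The fragment Ebr06G024120 (pea) had 176, 147 and 132 CPM (30d -P), 116, 117 and 91.5 CPM (30d +P), 232, 348 and 277 CPM (90d -P) and 174, 116 and 112 CPM (90d +P). The log2 fold changes were 0.30 at 30 d and 0.90 at 90 d for the former and 0.49 at 30 d and 1.09 at 90 d for the latter, with no overlap at either time. A glycogen synthase match (Ebr05G046500), also outside the list, lay on the lower side without overlap at both times. Its log2 fold change was -0.62 (adjusted p = 0.285), -0.57 at 30 d and -0.67 at 90 d. The genes outside the list were taken up after their values were seen.

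Of the 11 genes, 6 take part in starch breakdown. Beta-amylase 3 (assembled gene 5041, Arabidopsis), which frees maltose, had 90.8, 79.2 and 90.3 CPM (30d -P), 42.1, 42.6 and 37.8 CPM (30d +P), 32.9, 266 and 208 CPM (90d -P) and 54.02, 27.1 and 34.02 CPM (90d +P). At 90 d library A of -P lay within the +P range and B and C lay far above it, a log2 fold change of 1.61 (SE 0.42, adjusted p = 0.246). The reference copy of beta-amylase 3 (Ebr04G008880) had 153 to 457 CPM (median 216) in -P and 91.7 to 231 CPM (median 112) in +P, with differences of 1.31 at 30 d and 0.36 at 90 d. Isoamylase 3 (Ebr05G039130, Arabidopsis), a debranching enzyme, had 47.98 to 92.4 CPM (median 60.96) in -P and 34.8 to 59.2 CPM (median 38.99) in +P, a log2 fold change of 0.65 (SE 0.19, adjusted p = 0.287). The other 3 were alpha-glucan phosphorylase H (Ebr01G045000, broad bean) and 2 neighbouring beta-amylase 1 genes (Ebr06G015220 and Ebr06G015230), at log2 fold changes of 0.64, 0.46 and 0.60. The last of the 11 was a chloroplast invertase match (Ebr02G005360, Arabidopsis), which splits sucrose, at 1.81 (SE 0.71). How reads shared by such copies were counted is not stated, so the values of single copies are uncertain.

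**Figure D3:**
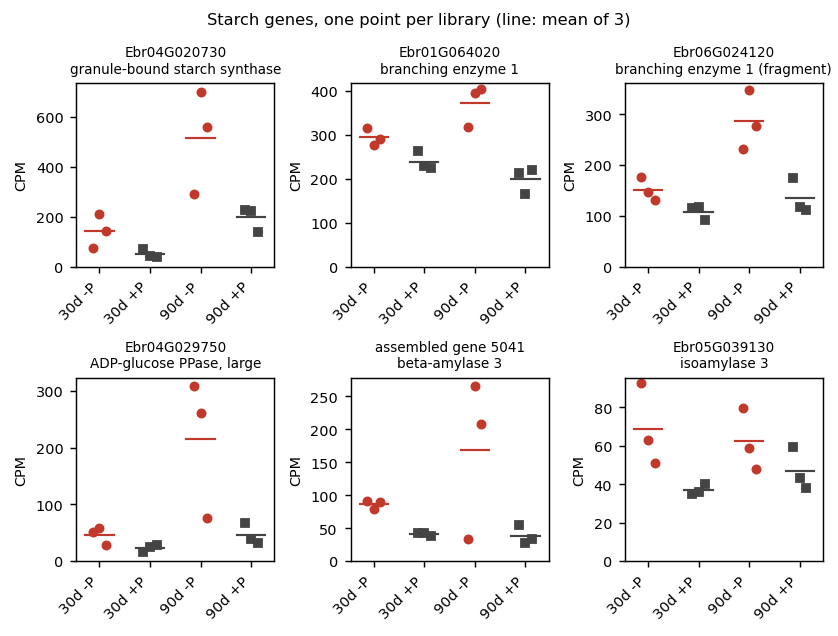
CPM of 6 starch genes (vertical axis, from 0) in each library, by group on the horizontal axis, with red circles for -P, grey squares for +P and lines at the means of 3. The top row holds granule-bound starch synthase 1 and both branching enzyme 1 genes, whose -P libraries lie above the +P libraries at both times. In the bottom row at least 1 time overlaps.

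Genes of phosphate transport and sensing gave no call and no member without overlap at both times. Over all genes tested 1 was called, and 0.617% were higher and 0.946% lower without overlap at both times. The absence of such members among 46 genes is thus near the shares of all genes. Of 88 annotated genes 46 were tested, 3 (6.52%) had an unadjusted p under 0.05 and were higher in -P and 3 were lower (6.52%), beside 4.37% and 5.98% of all genes, and the median log2 fold change was 0.09. With 1 library left out these counts were 2 to 6 and 1 to 3, the 6 without 90d -P A. The exporter PHO1 homolog 3 (Ebr03G045300, Arabidopsis) had 174 to 252 CPM (median 206) in -P and 89 to 204 CPM (median 136) in +P, a log2 fold change of 0.50 (SE 0.20, adjusted p = 0.409). A membrane protein with an SPX domain (Ebr02G027230, Arabidopsis), of the type that stores phosphate in the vacuole, had 29.1, 23.9 and 33.5 CPM (30d -P), 37.4, 10.7 and 24.04 CPM (30d +P), 24.3, 42.7 and 42.98 CPM (90d -P) and 11.4, 5.48 and 14.5 CPM (90d +P). Its groups overlapped at 30 d and were apart at 90 d, 0.26 at 30 d and 1.81 at 90 d. The importer Ebr02G025250, matched to a petunia phosphate transporter, had 22.6 CPM in 90d -P B and at most 0.893 CPM in the other 11 libraries, so its log2 fold change of 3.80 rests on that library. On the lower side were ubiquitin-conjugating enzyme E2 24 (Ebr03G015390), known in Arabidopsis as PHO2, which removes phosphate transporters, and 2 factors related to PHR1. The E2 enzyme had 24.8, 20.3 and 29.4 CPM (30d -P), 33.7, 28.9 and 38.7 CPM (30d +P), 27.2, 56.2 and 42.3 CPM (90d -P) and 52.9, 264 and 70.9 CPM (90d +P). Library 90d +P B stood far above the rest, and the difference was -0.44 at 30 d and -1.62 at 90 d. The factors PHL7 (Ebr03G001190) and PHR1-LIKE 3 (Ebr06G058970) had log2 fold changes of -0.25 and -0.36.

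The phosphate release list, enzymes that free phosphate from organic compounds and their transporters, had 65 of 174 genes tested, 5 (7.69%) higher and 4 (6.15%) lower at an unadjusted p under 0.05, beside 4.37% and 5.98% of all genes. With 1 library left out these counts were 4 to 9 higher and 4 to 8 lower. Without overlap at both times were 3 higher (4.62%) and 1 lower (1.54%), beside 0.617% and 0.946% of all genes. The closest to repetition in every library was glycerol-3-phosphate transporter 4 (Ebr04G011060, Arabidopsis, chromosome 4, 80598960 to 80615843), of a family that is induced by low phosphate in Arabidopsis. It had 29.99, 32.1 and 36.98 CPM in the 30d -P libraries A, B and C and 24.5, 23.02 and 22.8 CPM in the 30d +P libraries, then 31.97, 35.2 and 35.5 CPM in 90d -P and 19.9, 16.2 and 18.7 CPM in 90d +P. All 6 -P libraries lay above all 6 +P libraries, a log2 fold change of 0.70 (SE 0.12, adjusted p = 0.148), a 1.62-fold difference. DESeq2 gave it an adjusted p of 2.5e-06, with a change under the fold minimum. The inactive purple acid phosphatase 2 match (Ebr03G047280, Arabidopsis) had 89.3, 83.5 and 82.05 CPM (30d -P), 59.3, 41.7 and 48.1 CPM (30d +P), 71.8, 97.7 and 82.8 CPM (90d -P) and 51.5, 35.6 and 69.99 CPM (90d +P). Here too all 6 exceeded all 6, a log2 fold change of 0.73 (SE 0.16, adjusted p = 0.212).

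Purple acid phosphatases, secreted or vacuolar enzymes that split phosphate esters, lay on both sides of 0, with 16 of 31 genes tested at a positive and 15 at a negative log2 fold change. A pair of genes that both match purple acid phosphatase 3 of Arabidopsis lay on opposite sides at both times. Ebr02G039170 had 5.31, 25.6 and 19.2 CPM (30d -P), 25.8, 108 and 73.1 CPM (30d +P), 1.95, 1.64 and 3.27 CPM (90d -P) and 66.6, 13.3 and 6.64 CPM (90d +P). Ebr02G014180, on the same chromosome, had 1.005, 1.76 and 1.59 CPM (30d -P), 0.725, 0.825 and 0.534 CPM (30d +P), 1.22, 0.913 and 1.85 CPM (90d -P) and 0.849, 0.269 and 0.81 CPM (90d +P). Their log2 fold changes were -2.82 (SE 0.67) and 1.05 (SE 0.40). Purple acid phosphatase 26 (Ebr04G074710), the main vacuolar form in Arabidopsis, had 1.85 to 4.81 CPM (median 2.14) in -P and 3.43 to 9.67 CPM (median 5.65) in +P, a log2 fold change of -1.12 (SE 0.31, adjusted p = 0.274). The 2 matches of inactive purple acid phosphatase 27 had 0.70 (Ebr03G063140) and -1.64 (Ebr06G040040).

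Of the 27 membrane lipid genes tested, 3 (11.1%) were higher and 1 (3.70%) lower at an unadjusted p under 0.05, beside 4.37% and 5.98% of all genes. These counts were 0 to 4 and 1 to 3 with 1 library left out, the 0 without 90d +P A, and 0 and 2 without the pair 30d +P A and 90d +P B. The one without overlap at both times was assembled gene 1002 (chromosome 1, 218506142 to 218507750), which matches phospholipase D alpha 1 of rice, an enzyme that cuts the head group off phospholipids. It had 0.215, 0 and 0 CPM (30d -P), 4.61, 4.57 and 1.27 CPM (30d +P), 0, 0 and 0 CPM (90d -P) and 3.09, 6.02 and 2.11 CPM (90d +P). In -P, 5 of 6 libraries were at 0, a log2 fold change of -6.57 (SE 0.98, adjusted p = 0.137), and it carries no domain call. The reference gene Ebr02G060690 with the same protein match in castor bean had 70.2 to 302 CPM (median 196) in -P and 104 to 144 CPM (median 117) in +P, a log2 fold change of 0.65 (SE 0.27, adjusted p = 0.433), with domain calls of a whole phospholipase D. Non-specific phospholipase C6 (Ebr05G047030) and phosphatidate phosphatase PAH1 (Ebr01G055000), both steps from phospholipid to diacylglycerol in Arabidopsis, had log2 fold changes of 1.03 (SE 0.46) and 0.46 (SE 0.19). The 3 tested genes of galactolipid synthesis and the 2 of sulfolipid synthesis had no unadjusted p under 0.05.

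The metabolic bypass list had 45 of 75 genes tested, of which 32 had a positive and 13 a negative log2 fold change, with a median of 0.28. The list also took in 12 tested genes that match pyruvate kinase, 8 positive and 4 negative. Pyruvate kinase is the last step of glycolysis and not itself a bypass. Over the whole list, an unadjusted p under 0.05 was met by 4 (8.89%) higher and 1 (2.22%) lower genes, beside 4.37% and 5.98% of all genes. Of these, 1 higher gene and the 1 lower gene match pyruvate kinases. The lower one, assembled gene 2466, carries only a reverse transcriptase-like domain call. The higher count was 2 (without 30d -P B or 90d +P B) to 9 (without 90d +P C) with each library left out. Phosphoenolpyruvate carboxylase 2 (Ebr05G042000, Flaveria), which turns phosphoenolpyruvate into oxaloacetate and frees phosphate, had 118, 79.7 and 72.5 CPM (30d -P), 27.4, 56.8 and 61.8 CPM (30d +P), 55.1, 63.3 and 41.6 CPM (90d -P) and 21.8, 17.7 and 51.95 CPM (90d +P). At 90 d the library 90d +P C lay within the -P range, a log2 fold change of 0.85 (SE 0.29, adjusted p = 0.344). Its activating kinase (Ebr02G025060, Arabidopsis) had a log2 fold change of 0.93 (SE 0.40, adjusted p = 0.444). The alternative NAD(P)H dehydrogenase A2 of mitochondria (Ebr03G018780, Arabidopsis), which passes electrons without pumping protons, had a log2 fold change of 1.02 (SE 0.41, adjusted p = 0.406). Plastid pyruvate kinase A (Ebr01G019080, castor bean) had 92.2 to 122.8 CPM in -P and 74.6 to 91.9 CPM in +P. All 6 -P libraries exceeded all 6 +P libraries by a narrow margin, a log2 fold change of 0.30 (SE 0.10, adjusted p = 0.322). It has pyruvate kinase domain calls, which assembled gene 2466 on the lower side lacks, so the 2 are not shown to be forms of 1 enzyme.

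**Figure D4:**
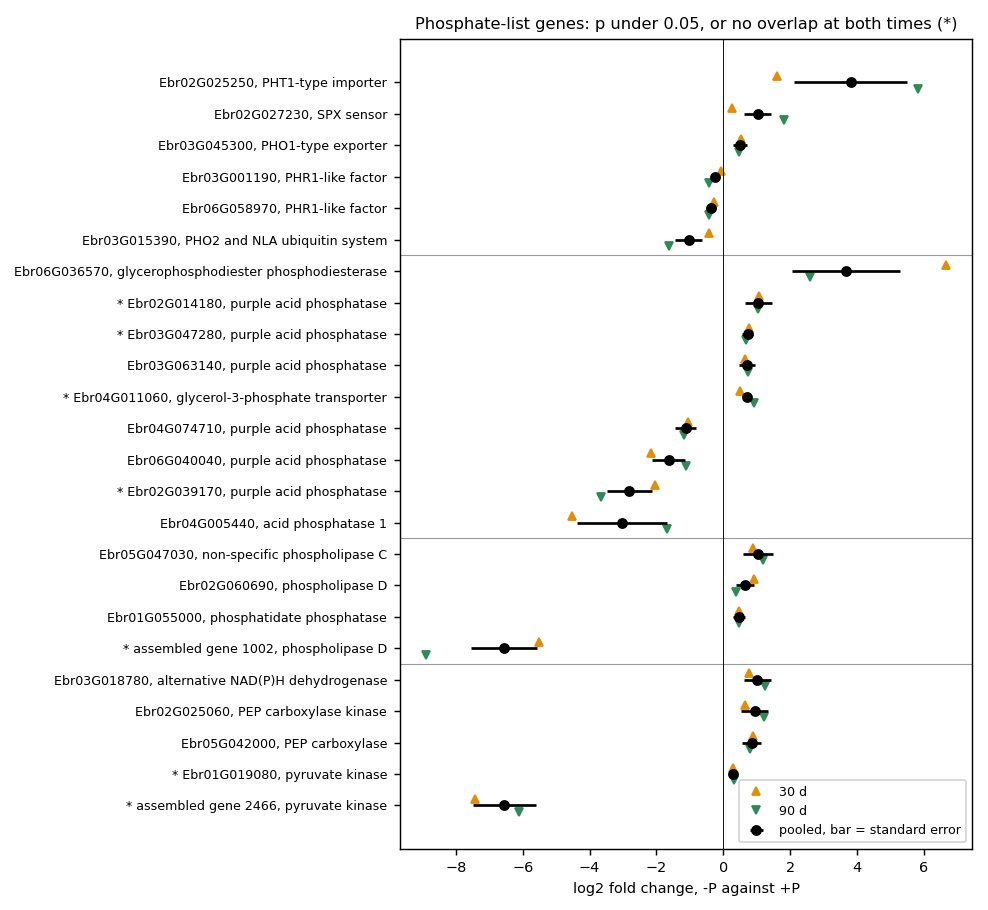
Log2 fold change of -P against +P (horizontal axis) for the genes of the 4 phosphate lists that had an unadjusted p under 0.05 or no overlap at both times (marked *), grouped by list from transport and sensing at the top to metabolic bypass at the bottom. Black points with bars are the pooled value and its standard error, and triangles the values at 30 d and 90 d. Most lie within 2 of 0, and assembled genes 1002 and 2466 lie near -6.6.

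The cell wall list had 99 of 172 genes tested, 9 (9.09%) higher and 15 (15.2%) lower at an unadjusted p under 0.05, beside 4.37% and 5.98% of all genes. Without overlap at both times were 2 higher (2.02%) and 5 lower (5.05%), beside 0.617% and 0.946%, and DESeq2 called 2 higher (2.02%) and 9 lower (9.09%), beside 0.621% and 1.4% of the genes that edgeR tested. With 1 library left out the counts at an unadjusted p under 0.05 were 7 to 15 higher, the 15 without 90d -P B, and 10 to 18 lower. The list's median of -0.07 was -0.14 to 0.02 with 1 library left out and 0.10 without the pair 30d +P A and 90d +P B. Of the 5, 4 match cellulose synthase-like proteins G2 or G3 of Arabidopsis, enzymes related to cellulose synthase, and 3 of these lie on chromosome 4 between 556207073 and 556627186. In all 9 genes with such a match were tested, 8 of them with a negative log2 fold change, a set picked after the values were seen. The whole cellulose synthase and cellulose synthase-like list had 29 positive and 29 negative values of 58. Ebr04G072550 had 0.0718, 0.0654 and 0.0638 CPM (30d -P), 0.264, 76.8 and 46.4 CPM (30d +P), 0, 0 and 0 CPM (90d -P) and 0.364, 68.7 and 0.594 CPM (90d +P). The +P libraries 30d +P A, 90d +P A and 90d +P C were under 1 CPM and the other 3 over 46 CPM, so the size of its log2 fold change, -9.69 (SE 1.92, adjusted p = 0.194), varied with the library. Its neighbours Ebr04G072590 and Ebr04G072600 had -4.19 (SE 0.95) and -2.63 (SE 0.76), and Ebr05G047910 on chromosome 5 had -5.52 (SE 1.40). Cellulose synthase-like protein H1 (Ebr06G053300, rice) lay on the other side, with 16.3 to 26.8 CPM (median 19.4) in -P and 5.14 to 19.6 CPM (median 11.8) in +P and a log2 fold change of 0.79 (SE 0.23).

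Expansins, proteins that loosen the wall, had a negative log2 fold change in 19 of 24 genes tested, with a median of -0.73, which was -1.07 to -0.11 with each library left out and -0.37 without the pair. The XTH genes of the cell wall list, the family of XTH22, did not share this. Of 17 tested, 10 were positive and 7 negative, with a median of 0.13 (-0.10 to 1.07 with each library left out). At an unadjusted p under 0.05, 4 XTH genes (23.5%) were higher and 0 lower, beside 4.37% and 5.98% of all genes. Genes of auxin response leaned lower, as expansins did, with 34 of 39 negative and a median of -0.43 (-0.89 to -0.37 with each library left out). No auxin response gene was without overlap at both times, beside 0.617% higher and 0.946% lower of all genes. At an unadjusted p under 0.05, 5 (12.8%) were lower and 0 higher, beside 5.98% and 4.37% of all genes. The lower count was 2 (without 30d +P C) to 11 (without 30d +P A) with 1 library left out. The smallest p of that list was that of an Aux/IAA repressor (Ebr02G022760, mung bean), which had 18.9, 9.94 and 6.63 CPM (30d -P), 4.48, 47.7 and 57.6 CPM (30d +P), 4.19, 1.7 and 1.42 CPM (90d -P) and 2.61, 7.47 and 13.9 CPM (90d +P). Its -P and +P libraries overlapped at both times, a log2 fold change of -1.67 (SE 0.59, adjusted p = 0.355).

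No transcription factor was called. Of 1349 tested, 54 (4.003%) were higher and 77 (5.71%) lower at an unadjusted p under 0.05, beside 4.37% and 5.98% of all genes, and 5 were higher (0.371%) and 13 lower (0.964%) without overlap at both times, beside 0.617% and 0.946%. Transcription factors as a whole were thus near or under the shares of all genes, and the factors named here are given as values only. By family, AP2/ERF factors had 12 of 71 (16.9%) higher and 2 lower, WRKY factors 6 of 34 (17.6%) higher and 0 lower, and bHLH factors 1 of 84 higher and 11 (13.1%) lower. These families were picked for their counts out of many, most of them small. NAC factors had 5 of 41 (12.2%) higher and 2 lower. With each library left out the higher counts were 6 to 17 for AP2/ERF and 1 to 7 for WRKY, both lowest without 30d -P B, and the lower count of bHLH was 9 to 13. Among the 13 lower factors, ETHYLENE INSENSITIVE 3 (Ebr01G031320, Arabidopsis), the master factor of ethylene signalling, had 2.37, 2.22 and 2.23 CPM (30d -P), 7.71, 3.82 and 5.74 CPM (30d +P), 4.56, 3.65 and 2.16 CPM (90d -P) and 4.67, 8.54 and 5.24 CPM (90d +P). Its difference was -1.34 at 30 d and -0.83 at 90 d (SE of the pooled value 0.28, adjusted p = 0.241). The HY5-like factor (Ebr02G001030, Arabidopsis) of light signalling had 25.4 to 34.5 CPM (median 28.5) in -P and 28.1 to 44.6 CPM (median 38.1) in +P and DOF5.4 (Ebr03G048680, Arabidopsis) 64.1 to 88.4 CPM (median 78.1) in -P and 80.03 to 106 CPM (median 99.02) in +P, each with a log2 fold change of -0.33. Of the 13, 3 were bHLH factors (Ebr05G003660, Ebr06G026990 and assembled gene 7786), at -1.24, -4.06 and -4.22. The 5 higher ones were ERF1A, RLT2 (Ebr06G044520), a JMJ25 demethylase (Ebr04G024440), Tubby-like F-box protein 3 (Ebr02G015520) and a DNAJ protein (Ebr05G003990), at 1.35, 0.19, 0.37, 0.58 and 0.29.

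**Figure D5:**
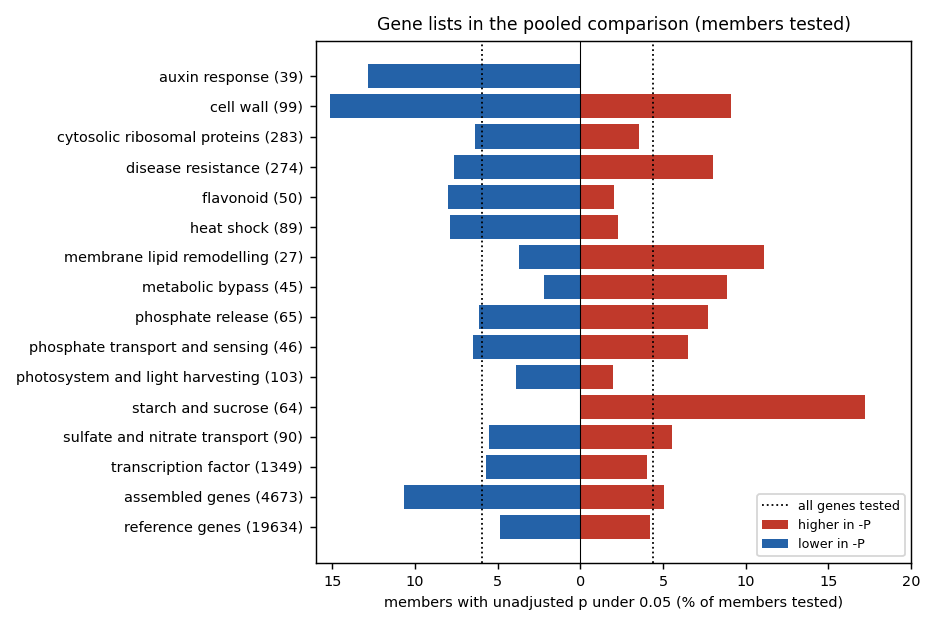
Share of the tested members of each gene list with an unadjusted p under 0.05 in the pooled comparison, in percent, higher in -P to the right (red) and lower to the left (blue), with the number tested in brackets. Dotted lines are the shares over all genes tested, 4.37% and 5.98%. Starch and sucrose reaches 17.2% on the higher side and cell wall 15.2% on the lower.

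In the other lists the counts were few or varied with 1 library. The 50 flavonoid genes tested came from a pathway set for flavonoid biosynthesis. That set reaches beyond the route to the icariin-type compounds for which this herb is used. Of the 50, 1 (2.0%) was higher and 4 (8.0%) lower at an unadjusted p under 0.05, beside 4.37% and 5.98% of all genes. Their median was 0.52 at 30 d and -0.13 at 90 d. Without 90d +P C the higher count was 10, and a flavonoid 3'-monooxygenase match (Ebr03G047030), a B-ring hydroxylase, was called at a log2 fold change of 2.69 (adjusted p = 0.0387). The pooled median of 0.09 was -0.07 to 0.64 with 1 library left out. The smallest p was that of a caffeoyl-CoA O-methyltransferase match (Ebr03G054220, Arabidopsis), with 0 to 0.718 CPM (median 0.277) in -P and 0.376 to 34.99 CPM (median 6.77) in +P and an adjusted p of 0.24. A vestitone reductase match (Ebr05G058750, alfalfa), an enzyme of isoflavonoid synthesis, was the member without overlap at both times, with 0.182 to 1.78 CPM (median 0.757) in -P and 0 to 0.375 CPM (median 0.193) in +P, a log2 fold change of 2.33 (SE 0.71, adjusted p = 0.3). Photosystem and light harvesting genes had 2 of 103 (1.94%) higher and 4 (3.88%) lower, both under the shares of all genes. With 1 library left out the counts were 1 to 4 higher and 3 to 7 lower. These genes had medians of -0.18 at 30 d and 0.27 at 90 d. Their smallest p was that of PsbP domain protein 7 (Ebr02G014660, Arabidopsis), with 18.8 to 26.5 CPM (median 22) in -P and 24.8 to 39.4 CPM (median 31.9) in +P, a log2 fold change of -0.53 (SE 0.14, adjusted p = 0.245).

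Cytosolic ribosomal proteins had 10 of 283 (3.53%) higher and 18 (6.36%) lower, beside 4.37% and 5.98% of all genes. With 1 library left out these counts were 6 to 18 and 12 to 25. A ribosomal protein S12 match (assembled gene 5382, barley) had 17.9, 17.3 and 20.2 CPM (30d -P), 36.7, 34.7 and 33.4 CPM (30d +P), 53.2, 32.2 and 29.6 CPM (90d -P) and 103, 80.5 and 58.1 CPM (90d +P). Within each time the -P libraries lay below the +P libraries, a log2 fold change of -1.0 (SE 0.17, adjusted p = 0.148). Disease resistance genes of the NBS-LRR type, receptors of pathogen effectors, had 22 of 274 (8.03%) higher and 21 (7.66%) lower, with Ebr02G015110 (Arabidopsis) at the smallest p. It had 12.1 to 22.9 CPM (median 14.5) in -P and 23.5 to 36.3 CPM (median 31.8) in +P, a log2 fold change of -1.02 (SE 0.18, adjusted p = 0.148). Heat shock genes had 2 of 89 (2.25%) higher and 7 (7.87%) lower, and sulfate and nitrate transporters 5 of 90 (5.56%) on each side. With 1 library left out the higher counts were 2 to 8 for heat shock genes and 3 to 16 for the transporters, both highest without 90d +P C, and the lower counts 3 to 7 and 2 to 7. The smallest p of these lists were those of a mitochondrial 22 kDa heat shock protein (Ebr04G055580, soybean), at -3.07 (SE 0.90, adjusted p = 0.283), and of nitrate transporter 2.5 (Ebr03G055470, Arabidopsis), at -6.01 (SE 1.52, adjusted p = 0.24). The latter had 29.0 CPM in 90d +P B and at most 2.21 CPM elsewhere.

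Genes without a single read in 1 arm were more numerous for -P than for +P. Of the 53813 genes, 13 had 0 counts in all 6 -P libraries and at least 1 in each +P library, 9 of them assembled genes, and 0 genes had the reverse. With at least 4 of 6 libraries counted and 18 reads or more in the other arm, 171 genes were at 0 in -P and 57 at 0 in +P. Assembled gene 6848 (chromosome 5, 429896318 to 429910516), a match of sterol 14-demethylase, an enzyme of sterol synthesis, had 1, 31 and 50 reads at 30 d and 81, 121 and 120 reads at 90 d. Against a floor of 3 counts per library it was at least 21.6-fold lower in -P. Assembled gene 4704 (chromosome 3, 410009373 to 410010328) had 53, 37 and 12 reads at 30 d and 75, 79 and 20 reads at 90 d, at least 15.3-fold lower. Assembled genes 3172 and 3247 were at least 12.9-fold and 11.2-fold lower. None of the 13 passed edgeR's test, whose adjusted p was 0.148 to 0.285 for the 7 that entered it, while DESeq2 put 9 of the 11 it tested at an adjusted p under 0.05. Floors and folds cover counting error only.

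Neighbouring genes recurred among the 380 same-way genes, as seen after the values were known. In 15 cases 2 tested genes in a row were both same-way and in the same direction, and in 1 case in opposite directions, and 4 runs held 3 or more genes. The longest lay on chromosome 2 between 348806141 and 348863810 and held 4 lower genes, 3 matches of cell number regulators (Ebr02G040490, Ebr02G040500 and Ebr02G040520) and 1 of PLANT CADMIUM RESISTANCE 3 (Ebr02G040510), related membrane proteins of metal handling and organ size in Arabidopsis and maize. Ebr02G040500 had 0, 3.86 and 67.1 CPM (30d -P), 169.9, 97.02 and 74.7 CPM (30d +P), 0.0608, 2.92 and 15.5 CPM (90d -P) and 77.4, 162 and 118 CPM (90d +P). Ebr02G040510 had 0.143, 0 and 11.7 CPM (30d -P), 52.8, 66.4 and 45.8 CPM (30d +P), 0, 1.16 and 1.73 CPM (90d -P) and 26.1, 155 and 71.9 CPM (90d +P). In both, 30d -P C was the highest -P library and lay closest to +P. The 4 log2 fold changes were -4.39, -3.26, -5.04 and -5.23, at adjusted p of 0.234 to 0.384, and without 30d -P C Ebr02G040520 passed with -8.50 at 0.0458.

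In all, 7 protein matches were shared by a higher and a lower same-way gene, among them purple acid phosphatase 3, cinnamoyl-CoA reductase 1 and expansin-A13. The pair of Ran-binding protein 1 homolog c (Arabidopsis), a partner of the Ran GTPase in nuclear transport, lies on chromosome 1. Ebr01G068450 had 63.2, 59.5 and 63.3 CPM (30d -P), 17.9, 26.8 and 15.2 CPM (30d +P), 72.3, 100.1 and 70.6 CPM (90d -P) and 44.3, 10.5 and 55.2 CPM (90d +P). Ebr01G068540 had 32.4, 10.8 and 5.87 CPM (30d -P), 32.6, 55.2 and 51.8 CPM (30d +P), 1.7, 1.1 and 0.987 CPM (90d -P) and 32.6, 50.9 and 35.5 CPM (90d +P). The log2 fold changes were 1.39 (SE 0.33) and -3.14 (SE 0.72), and reads shared by the copies could move them. For expansin-A13, Ebr03G038490 had 3.47 to 9.54 CPM (median 5.05) in -P and 2.05 to 5.1 CPM (median 3.02) in +P and Ebr03G038630 had 0.365 to 1.57 CPM (median 0.879) in -P and 1.03 to 5.55 CPM (median 2.85) in +P, at 0.78 and -1.88.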

How the data were processed

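Leaf RNA of 12 samples, 3 in each of 4 groups, was sequenced as mRNA libraries. Per the submitters' notes and the study's methods, the authors aligned reads to the Epimedium pubescens genome with HISAT2 2.0.5, assembled further genes with StringTie 1.3.3b and counted reads per gene with featureCounts 1.5.0-p3. The genome build version, the strand setting and the handling of reads shared by copies are not given in the sources used here, so copies and antisense partners can share reads. The deposited gene table holds raw counts for 53813 genes (44721 of the reference annotation, 9092 assembled), of which 15568 had no read and 1 line was empty. FPKM values deposited by the authors (counts per gene length and library size) served only as an alternative. Protein matches, domains and transcription factor families are those of the authors' annotation, and roles named are those of the matched protein.

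Counts were tested with edgeR 4.0.16 (filterByExpr, TMM, robust quasi-likelihood fit, 9 residual degrees of freedom, biological coefficient of variation 0.603, R 4.3.3), with phosphorus and time as additive terms. Values at each time and their interaction came from a fit with 1 mean per group. P-values were adjusted by Benjamini-Hochberg over all genes tested, and a call needed an adjusted p of 0.05 or less and a log2 fold change of 1 or more in size. Standard errors were the log2 fold change divided by the root of F. The procedure was tested on simulated counts. Alternatives used DESeq2 1.42.0, limma 3.58.1 and other filters, scalings, blocks and libraries.

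Gene lists were sets of annotation words, except that the flavonoid list was a pathway set and transcription factors followed the authors' families. Members, lists and rules were chosen with earlier results of these data known. The rule named all called genes, the 12 smallest p in each direction, phosphate list members without overlap at both times, the smallest p of each other list and the 3 genes nearest the threshold. All other genes were named after their values were seen: the same-way genes of highest CPM, list members of small p or without overlap, genes at 0 in 1 arm, neighbours and shared matches. Whether replicates were separate cultures beyond separate seedlings is not stated, and p-values measure only their spread. No sequence is shown, as no reference was used here.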

Additional observations from a re-analysis of the deposited data

How the results depend on the processing

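The count of called genes was the least stable result. Against 0 higher and 1 lower genes, DESeq2 called 162 and 366, edgeR's likelihood ratio test 130 and 274, limma-voom 19 and 50, and a threshold on p before adjustment, fold minimum kept, 516 and 893. The 30 d libraries alone, the 90 d libraries alone and a fit with no time term each gave 0 lower genes. Leaving out 1 library at a time gave 0 to 1 higher and 0 to 7 lower genes, and leaving out 30d +P A with 90d +P B, an alternative chosen after seeing the data, gave 1 and 14. Genes without overlap at both times numbered 189 to 397 higher and 293 to 471 lower with 1 library left out, and 407 and 630 with that pair left out, as fewer libraries are easier to separate. RLE scaling, other filters, the non-robust fit and no fold change minimum kept the count at 0 and 1, with Ebr06G019870 as the called gene.

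With the replicate block (letters A to C), Ebr06G019870 had an adjusted p of 0.0636, and 0.148 with the block within time, and in each fit 1 other gene was called, assembled gene 7480 (log2 fold change -6.23 and -6.13, adjusted p = 0.00294 and 0.0188). By the check used here the letters do not pair the libraries, since deviations of same-letter -P and +P libraries of a time correlated at -0.233 to 0.0870 over 6 pairs, and 2 of 12 libraries correlated best with their own letter. Same-letter libraries of an arm at the 2 times correlated at -0.00427 to 0.212, 3 of 6 pairs over 0.1, and the pooled fit takes them as independent. Of 936 pairs of a named gene and an alternative (36 by 26), 924 gave a value, and 12 did not because the gene was filtered out. No value took the other sign, 839 kept their side of the threshold, 75 came to pass it and 10 lost it, all of Ebr06G019870. These genes were chosen by p or by non-overlap in the same libraries, which favours a constant sign, so the sign count is no test of stability. Of the medians of gene lists, 6 of 14 took the other sign in at least 1 fit with 1 library left out (cell wall, ribosomal, flavonoid, heat shock, photosystem, sulfate and nitrate). At these depths a gene under about 1 CPM rests on few reads, so its fold change and its zero values are limited by counting.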

Other observations

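A run of 3 neighbouring higher genes lay on chromosome 4 between 35600175 and 35727413, with log2 fold changes of 3.09 (Ebr04G005600), 3.10 (Ebr04G005620) and 3.59 (assembled gene 4995). Another held 3 overlapping or adjacent assembled genes of chromosome 6 (7785, 7786 and 8402) at -4.07, -4.22 and -4.45, where reads of overlapping genes cannot be told apart. On chromosome 1, Ebr01G068440, Ebr01G068450 and Ebr01G068460 were higher together, at 0.56, 1.39 and 2.47. Of the 43 genes without overlap at both times but in opposite directions, 22 were higher in -P at 30 d and lower at 90 d, and 21 the reverse.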
